A study of Rattus norvegicus with 48 samples.

Results

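Kidney RNA of Dahl salt-sensitive rats kept on 8% NaCl was compared between 6 animals given a monoclonal antibody against marinobufagenin and 6 animals given a control mouse IgG1. These 12 arrays were chosen by their tissue, diet and antibody labels out of the 48 arrays of the series, and no measured value entered the choice. All animals were male SS/JrHsd rats, an inbred strain whose blood pressure climbs on a salt-rich diet, and no group was of a salt-resistant strain. Animals with the same antibodies on 0.1% NaCl (6 and 6 kidney arrays) and the left ventricles of all 24 animals made up the rest. The antibody (clone 3E9) or the control IgG was injected once into the peritoneum at 50 µg/kg. The control animals therefore also received a foreign immunoglobulin. The diets began at 6 weeks of age, the injection is placed in diet week 7 at 15 weeks, and the age of the animals is given as 16 weeks. These figures do not add up, so the time on the diet is uncertain.

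Marinobufagenin is a steroid made in the body that binds the Na/K-ATPase, the pump that drives sodium reabsorption along the nephron. Besides slowing the pump, such steroids are known to signal through it, by way of Src kinase, and marinobufagenin has been linked to collagen production and fibrosis. In the kidney, filtered sodium is recovered in turn by the proximal tubule, the thick ascending limb, the distal convoluted tubule and the collecting duct, each with its own transporters. The comparison asks whether neutralising this steroid lowers profibrotic transforming growth factor beta (TGF-beta) signalling in the salt-loaded kidney.

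Values are log2 intensities after background correction and quantile normalization, and a probe was called changed at a limma Benjamini-Hochberg adjusted p below 0.05. An intensity cannot be compared between probes, only between arrays for 1 probe. In whole-kidney RNA a smaller number of cells of a type and less RNA per cell cannot be told apart. The 12 arrays detected 10409 to 11163 of the 22523 probes. Detected probes averaged 10674.8 ± 274.5 (SD, n = 6) with the antibody and 10991.8 ± 237.9 (n = 6) with control IgG, a difference of -317 (exact two-sided permutation test, p = 0.0584, adjusted over 2 measures 0.117). Control replicate 1 was the dimmest of the 12 arrays, with a log2 95th percentile of 10.96 against 11.98 to 12.23 for the other control arrays. The check of the tissue label by markers is coarse, since it sets different probes side by side. Uromodulin (Umod) lay at 14.58 or above on all 12 arrays, and the 3 tested heart muscle markers averaged at most 6.94 on any kidney array. Among the latter, Tnnt2 reached 9.29 on control replicate 4 and 7.98 on control replicate 1, against 6.26 to 7.21 on the antibody arrays. Antibody replicate 1 carried adrenal cortex markers, with the steroid hydroxylases Cyp11b1 at 8.97 and Cyp21a1 at 8.44, against at most 6.47 and 6.40 on the other 11 arrays. Cyp11a1, the remaining tested adrenal marker, set it apart less, at 9.84 there and at 9.50 and 8.92 on control replicates 2 and 5. The part of these markers in the results was not tested.

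The antibody group differed from the control group at 314 of 11534 tested probes, or 2.72%. Higher with the antibody were 191 probes (1.66%) and lower 123 (1.07%). The split moved with the scaling, to 145 higher and 143 lower with the deposited z-scores and 38 higher and 43 lower with median scaling. Among the 8282 named genes tested, 151 (1.82%) had a raised and 105 (1.27%) a lowered probe. Raised probes included Cyp1a1, transporters of the tubule and the ascending limb products Egf and Umod, and lowered probes included collagens, lumican, elastin and a group of proximal tubule transporters. Over 2-fold differences numbered 35 upwards and 41 downwards. The groups did not overlap at 186 of all tested probes (1.61%), of which 89 were among those called. The median log2 difference over all tested probes was 0.02.

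**Figure D1:**
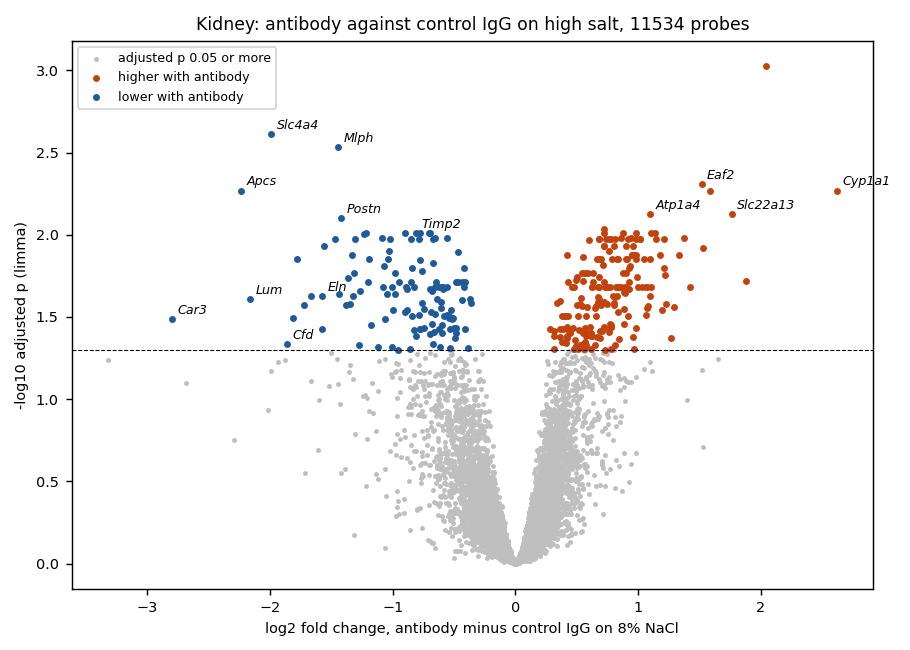
Log2 fold change (antibody minus control IgG, both on 8% NaCl, 6 kidney arrays each; horizontal axis) against -log10 of the limma adjusted p (vertical axis) for 11534 probes, with the dashed line at an adjusted p of 0.05. The 191 raised probes are orange and the 123 lowered probes blue; Cyp1a1 lies farthest right among the raised probes and Car3 farthest left among the lowered ones.

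How many probes passed depended on the arrays in the fit. With the 2 high-salt groups alone, without the 12 low-salt arrays, 30 probes passed. With the fat cell marker level of each array as a covariate, 16 passed. Leaving out antibody replicate 5 left 59 calls and leaving out control replicate 3 gave 601. Without antibody replicate 1, which carried the adrenal markers, 110 probes passed, and without the dim control replicate 1 206 passed. Of the 59 named probes, 21 passed whichever 1 of the 12 arrays was left out, and 3 passed in every fit that tested them: Slc4a4, Apcs and Mlph.

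Slc4a4, the sodium bicarbonate cotransporter NBCe1 at the blood side of proximal tubule cells, had the smallest adjusted p among the named genes. Its log2 intensity ran from 8.72 through a median of 9.50 to 10.89 with the antibody, and from 11.15 through 11.66 to 12.16 with control IgG. All 6 antibody arrays lay below all 6 control arrays. The mean was 3.98-fold lower (log2 change -1.99, SE 0.29, adjusted p = 0.00245). Apcs encodes serum amyloid P component, a plasma pentraxin made mainly by the liver. It ran from 8.33 through 9.70 to 11.33 with the antibody and from 11.69 through 11.91 to 12.46 with control IgG, again without overlap. This was a 4.72-fold lower mean (log2 change -2.24, SE 0.37, adjusted p = 0.0054). Mlph, melanophilin, which tethers vesicles to myosin through Rab27a, lay at 6.09 to 7.46 (median 6.96) against 7.58 to 8.77 (median 8.22). That probe was 2.72-fold lower (log2 change -1.45, SE 0.22, adjusted p = 0.00294), and here too the groups were separate.

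Other transporters known from the proximal tubule also fell, with groups that overlapped. Slc5a12, a low-affinity sodium lactate cotransporter, ran from 6.17 through 8.00 to 10.28 with the antibody and from 9.27 through 9.96 to 10.25 with control IgG (log2 change -1.82, SE 0.46, adjusted p = 0.0323). Slc5a2, the glucose transporter SGLT2 of the early proximal tubule, ran from 8.92 through 10.31 to 11.90 against 11.47 through 11.71 to 12.06 (log2 change -1.33, SE 0.32, adjusted p = 0.0236). Slc7a7, a subunit of the basolateral y+LAT1 amino acid exchanger, ran from 9.20 through 10.34 to 12.15 against 11.72 through 11.94 to 12.26 (log2 change -1.44, SE 0.34, adjusted p = 0.0231). Antibody replicate 6 held the highest and replicate 5 the lowest antibody value for each of these, and for Slc4a4 and Apcs as well. For Slc5a2 and Slc7a7 replicate 6 lay within the range of the control arrays, and for Slc5a12 it lay above all of them.

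The proximal tubule did not move as a block. Of the 8 tested genes of a proximal tubule marker list, Slc5a2 alone passed. Log2 changes that missed the threshold were -1.31 for Gatm (adjusted p = 0.16), which makes guanidinoacetate for creatine, -0.94 for the organic anion transporter Slc22a8 (adjusted p = 0.09), -0.25 for the phosphate transporter Slc34a1 (adjusted p = 0.48), and 0.35 for the inositol oxygenase Miox (adjusted p = 0.2). The median over the 8 genes was -0.20, against 0.01 over the 8282 named genes.

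Other proteins of the tubule were higher with the antibody. Slc22a13, the urate and nicotinate exchanger OAT10, ran from 7.07 through 7.68 to 8.13 with the antibody and from 5.31 through 5.67 to 6.90 with control IgG. The groups did not overlap, and the mean was 3.40-fold higher (log2 change 1.76, SE 0.30, adjusted p = 0.00752). It was detected on all 6 antibody arrays and on 3 of the 6 control arrays, so that the size of its fold is uncertain. Slc23a3, an orphan member of the vitamin C transporter family, lay at 11.11 to 11.58 (median 11.27) against 9.19 to 11.08 (median 10.21), with a log2 change of 1.13 (SE 0.21, adjusted p = 0.00975). Mme, the brush border peptidase neprilysin, lay at 11.43 to 11.93 (median 11.58) against 9.53 to 11.23 (median 10.81), with a log2 change of 0.95 (SE 0.20, adjusted p = 0.0133). Neither gene overlapped between the groups. For Gc, the vitamin D binding protein, the rise was 1.37 (SE 0.27, adjusted p = 0.0105). Its groups were only just separate, the lowest antibody array and the highest control array both lying at 10.98 after rounding.

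Cyp1a1 showed the largest rise of a named gene. This cytochrome P450 oxidises polycyclic aromatic compounds and is the classical target of the aryl hydrocarbon receptor. Its log2 intensity was 9.42 to 11.10 (median 10.19) with the antibody and 6.13 to 10.12 (median 7.38) with control IgG, a 6.14-fold difference (log2 change 2.62, SE 0.43, adjusted p = 0.0054). Control replicate 3, at 10.12, lay inside the antibody range, and the other 5 control arrays lay at 7.94 or below. The low-salt arrays, at 9.39 to 10.94, were near the antibody arrays. Other enzymes of foreign compound metabolism among the 15 largest rises were Cyp2d1 (log2 change 1.43, SE 0.33, adjusted p = 0.0208) and the aldo-keto reductase Akr1c12 (1.10, SE 0.20, adjusted p = 0.00975). Both belong to gene families of near-identical members, whose probes may bind more than 1 transcript.

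The remaining large rises were a mixed group. Eaf2, a partner of the transcription elongation factor ELL, lay at 8.48 to 9.53 (median 9.04) against 6.73 to 8.33 (median 7.55) without overlap, a 2.86-fold difference (log2 change 1.52, SE 0.24, adjusted p = 0.00494). Gcgr, the glucagon receptor, was 2.53-fold higher (log2 change 1.34, SE 0.28, adjusted p = 0.0133), and Prlr, the prolactin receptor, 2.31-fold higher (log2 change 1.21, SE 0.24, adjusted p = 0.0106). The 3 tested probes of Gcgr ran from a log2 change of 0.51 to 1.34, and 2 of them passed. Ppp1r1a, an inhibitor subunit of protein phosphatase 1, rose by 1.10 (SE 0.23, adjusted p = 0.014). Or2n1e, annotated as an olfactory receptor (1.53), Iqch (1.29), the annexin Anxa13 (1.20) and the serine protease Prss30 (1.15) completed the 15. Among these 15 genes the groups were separate for 6, against 1.61% of all tested probes. The 15 were picked as the largest rises of the same comparison, so a higher share is built in. Control replicate 3 was the highest control array for 14 of the 15 and control replicate 1 the lowest for 12.

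Both directions occurred among genes of sodium transport and its control. In the renal sodium transport list, 4 of 24 tested genes rose (16.7%, against 1.82% of all named genes), 2 fell and 18 did not pass. Scnn1a, the alpha subunit of the epithelial sodium channel, lay at 11.01 to 11.78 (median 11.41) with the antibody and 10.06 to 11.41 (median 10.66) with control IgG (log2 change 0.73, SE 0.17, adjusted p = 0.0195). Scnn1g, its gamma subunit, lay at 8.05 to 8.78 (median 8.46) against 7.27 to 8.17 (median 7.75), with a log2 change of 0.70 (SE 0.15, adjusted p = 0.014). The beta subunit Scnn1b had a log2 difference of 0.41 that did not pass (adjusted p = 0.12). Nr3c2, the mineralocorticoid receptor, through which aldosterone raises this channel, was higher by 0.42 (SE 0.11, adjusted p = 0.0411) with separate groups. Umod, the main protein of normal urine and a product of the thick ascending limb, was higher by 0.52 (SE 0.14, adjusted p = 0.0379). The 2 lowered members were Slc4a4 and Slc5a2. The proximal sodium-proton exchanger Slc9a3 missed the threshold at 0.74 (adjusted p = 0.053), and the thiazide-sensitive transporter Slc12a3 was at 0.18 (adjusted p = 0.85). Leaving out antibody replicate 5 left 0 of the 4 rises, and the fit of the 2 high-salt groups alone also left 0.

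Markers of the distal segments included 5 raised genes. Of 4 tested thick ascending limb markers 3 rose (against 1.82% of all named genes), namely Egf, the urinary epidermal growth factor (log2 change 0.95, SE 0.20, adjusted p = 0.0133), the magnesium pore protein Cldn16 (0.80, SE 0.20, adjusted p = 0.0266) and Umod. Of 8 tested collecting duct markers 2 rose (25%, against the same 1.82%), the proton pump subunit Atp6v1b1 (0.86, SE 0.17, adjusted p = 0.0105) and Scnn1g, while the water channel Aqp2 was at 0.20 (adjusted p = 0.9). Egf ran from 13.54 through 13.99 to 14.19 with the antibody and from 11.94 through 13.15 to 13.67 with control IgG, so that 1 control array reached the antibody range. Atp6v1b1 had separate groups, at 7.68 to 8.60 against 6.87 to 7.53.

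**Figure D2:**
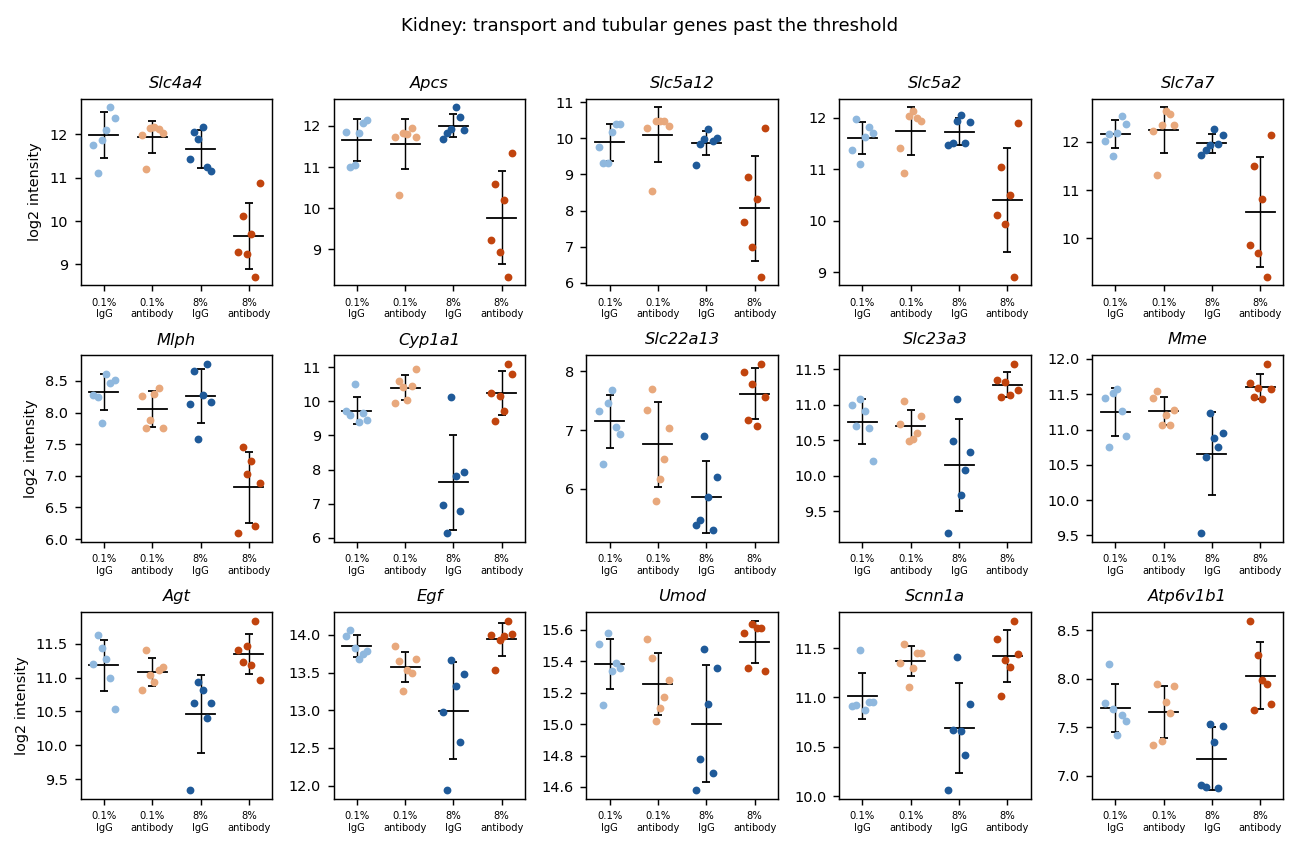
Log2 intensity (vertical axis, scaled separately for each gene) on the 24 kidney arrays for 15 transport and tubular genes past the threshold, with 6 arrays per group; lines are means and bars SD. Slc4a4, Apcs, Slc5a12, Slc5a2, Slc7a7 and Mlph have their lowest group mean with the antibody on 8% NaCl, and the other 9 genes have it with control IgG on 8% NaCl.

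Of the renin-angiotensin-aldosterone genes, 3 of 9 tested rose (33.3%, against 1.82% of all named genes) and 0 fell. Agt, angiotensinogen, the precursor of angiotensin II, lay at 10.97 to 11.84 (median 11.32) with the antibody and 9.34 to 10.93 (median 10.63) with control IgG, without overlap (log2 change 0.89, SE 0.21, adjusted p = 0.0227). The other two were Mme, which also cleaves angiotensins, and Nr3c2. The angiotensin receptor Agtr1a was at -0.09 (adjusted p = 0.87). Renin had no named probe, and converting enzyme (Ace) was too dim to be tested.

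Genes of collagens and the extracellular matrix were lower with the antibody. Of 32 tested members of the list 13 fell and 0 rose, or 40.6% lowered against 1.27% of all named genes. The median log2 difference over the list was -0.66, and 29 of the 32 lay below 0. The 13 were the fibrillar collagen genes Col1a1, Col1a2 and Col3a1, the microfibril collagen Col6a1, Eln, Fbn1, the proteoglycans Dcn and Lum, Postn, Sparc, the metalloproteinase inhibitors Timp1 and Timp2, and the smooth muscle protein Tagln. Lum, lumican, which spaces collagen fibrils, fell most: it ran from 5.66 through 6.68 to 7.60 with the antibody and from 6.71 through 9.0 to 10.29 with control IgG, a 4.47-fold lower mean (log2 change -2.16, SE 0.52, adjusted p = 0.0246). Postn, periostin, a matrix protein of injured tissue, was detected on 1 of 6 antibody arrays and on 5 of 6 control arrays. It lay at 5.36 to 6.05 (median 5.57) against 5.66 to 7.93 (median 7.24), with a log2 change of -1.42 (SE 0.25, adjusted p = 0.00792). Arrays on which a probe was not detected hold background-level values, so the size of this change is uncertain. Control replicate 3, at 5.66, was the 1 control array among the antibody values.

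Timp2 separated the groups fully, at 7.00 to 8.18 (median 7.71) with the antibody against 8.27 to 8.73 (median 8.53) with control IgG (log2 change -0.81, SE 0.15, adjusted p = 0.00975). Timp1 lay at 9.34 to 11.34 (median 10.54) against 10.57 to 12.32 (median 11.91), with a log2 change of -1.20 (SE 0.27, adjusted p = 0.0195). Col3a1, the collagen of reticular fibres, was 1.97-fold lower at 8.37 to 9.61 (median 8.84) against 8.96 to 10.51 (median 9.996), with a log2 change of -0.98 (SE 0.22, adjusted p = 0.017). The type I chains fell by 1.12 on the log2 scale for Col1a1 (SE 0.31, adjusted p = 0.0478) and by 0.61 for Col1a2 (SE 0.15, adjusted p = 0.0277). Elastin (Eln) fell by 1.58 (SE 0.38, adjusted p = 0.0236), and its control arrays spread from 6.99 to 9.38. Outside the list, Col14a1 fell by 1.78 (SE 0.38, adjusted p = 0.014) with separate groups, and Col8a1 fell by 1.56 (SE 0.32, adjusted p = 0.0117). Members that did not pass included fibronectin (Fn1, log2 difference -0.62, adjusted p = 0.39), the basement membrane chain Col4a1 (-0.53, adjusted p = 0.25) and osteopontin (Spp1, -0.07, adjusted p = 0.94).

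**Figure D3:**
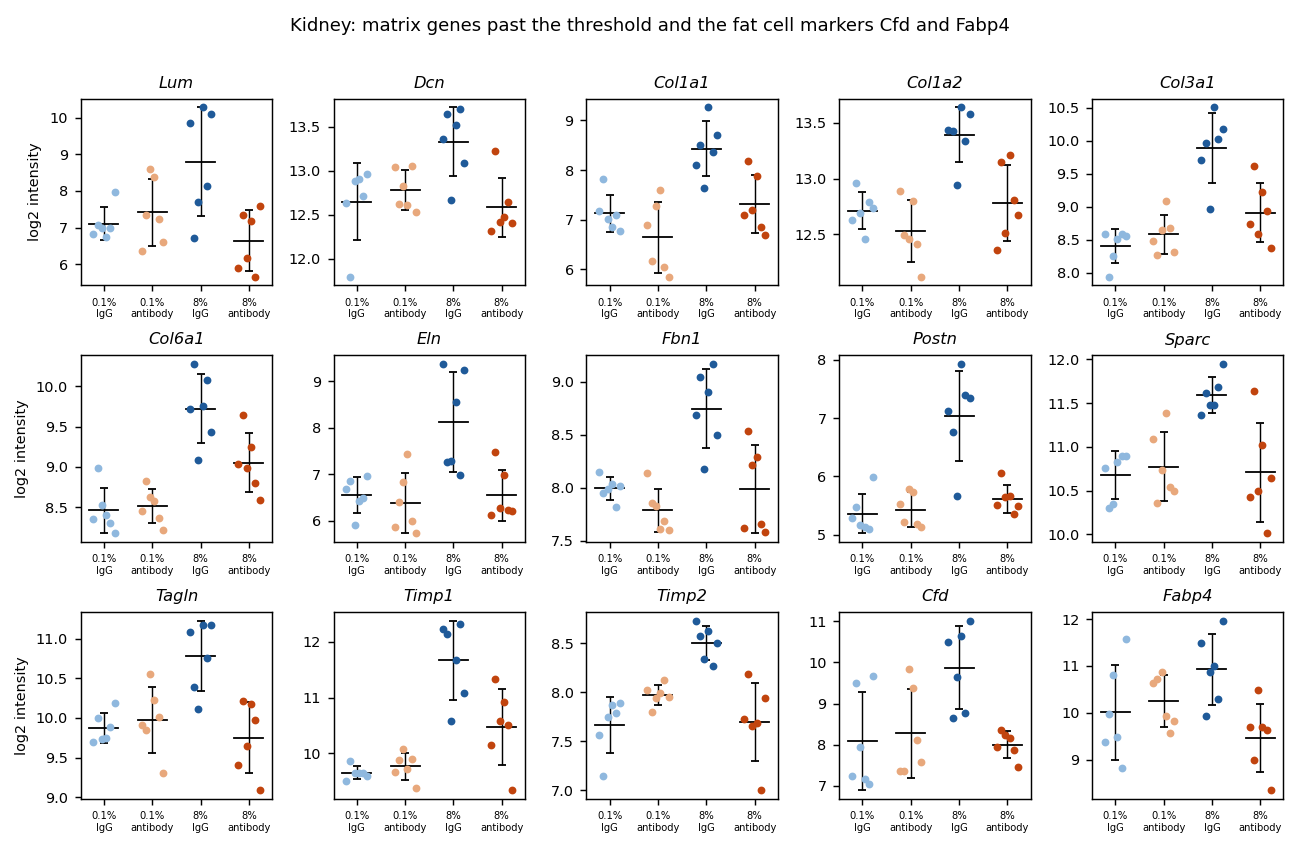
Log2 intensity (vertical axis, scaled separately for each gene) of the 13 lowered matrix genes and of the fat cell markers Cfd and Fabp4 on the 24 kidney arrays, with 6 arrays per group; lines are means and bars SD. The control group on 8% NaCl has the highest mean of the 4 groups in each panel, and its arrays spread widely for Lum, Eln and Cfd.

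A marker of fat cells, Cfd, fell beside the matrix genes. Of 3 tested adipocyte markers, Cfd, the protease adipsin, fell by 1.87 (SE 0.51, adjusted p = 0.0465). It lay at 7.45 to 8.35 (median 8.05) with the antibody and 8.66 to 11.02 (median 10.07) with control IgG, highest in control replicates 6, 4 and 1. The fatty acid binding protein Fabp4, also made by capillary endothelium, missed the threshold at -1.45 (adjusted p = 0.057), and adiponectin (Adipoq) was at -0.19 (adjusted p = 0.79). Lep was too dim to be tested and Plin1 had no named probe. The mean level of the 3 markers was 7.70 to 8.73 on the antibody arrays, 8.48 to 10.46 on the control arrays and 7.50 to 9.64 on the low-salt arrays. Car3, carbonic anhydrase 3, an abundant protein of muscle and fat cells, showed the largest fall of all, 6.96-fold, at 7.84 to 9.57 against 9.996 to 12.62 (log2 change -2.80, SE 0.72, adjusted p = 0.0326). Control replicates 1, 4 and 6 held the 3 highest control values of Lum, Eln and Col14a1 as well, and of Col1a2 and Tagln. The other lowered genes of the matrix list did not follow these arrays. For Col1a1, Col3a1, Col6a1, Fbn1, Dcn, Postn, Sparc, Timp1 and Timp2 the 3 highest control values included replicate 2 or 5.

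With the mean of the 3 fat cell markers as a covariate, 7 of the 59 named probes passed, and 0 of the 13 matrix genes. Cfd is among the 59 and also part of the covariate, so its own loss was fixed in advance. The marker level also differed between the groups, so a call can be lost where the difference stays. Gcgr, for example, was at 1.57 in that limma fit (adjusted p = 0.063), against 1.34 without the covariate. In other genes the difference shrank: Car3 was at -0.89 in that fit (adjusted p = 0.6), against -2.80 without the covariate. Under that covariate the log2 difference of Lum was -1.02 (adjusted p = 0.43), of Eln -0.78 (adjusted p = 0.41), of Timp2 -0.81 (adjusted p = 0.074) and of Col3a1 -0.89 (adjusted p = 0.13). The median over the matrix list was -0.59 in that fit, against -0.66 without the covariate. In the fit of the 2 high-salt groups alone 0 matrix genes passed, and the median was -0.65. Leaving out antibody replicate 5 left 3 of the 13, and leaving out antibody replicate 1 left 4. The 7 that passed with the covariate were Slc4a4 (-2.20), Apcs (-2.43), Mlph (-1.63), Cyp1a1 (2.89), Egf (1.18), Scnn1g (0.90) and Atp6v1b1 (1.0).

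Since the matrix genes fell together, the RefSeq promoters of the GRCr8 rat assembly, 250 bases before to 50 after the annotated start, were searched on both strands for the letters TATAAA of the TATA box. Promoters were found for 8 of the 13 genes, and 2 of the 8 held the letters, against 14.2% of all 33469 promoters. These are the promoters of Postn (chr2:140677811-140678110, + strand) and Col1a2 (chr4:33518307-33518606, + strand), with the match in capitals. The match begins at -44 from the annotated start in Postn and at -170 in Col1a2, so the 2 are not placed alike. The assembly is of another rat strain, and a match of letters is not a binding site.
Postn: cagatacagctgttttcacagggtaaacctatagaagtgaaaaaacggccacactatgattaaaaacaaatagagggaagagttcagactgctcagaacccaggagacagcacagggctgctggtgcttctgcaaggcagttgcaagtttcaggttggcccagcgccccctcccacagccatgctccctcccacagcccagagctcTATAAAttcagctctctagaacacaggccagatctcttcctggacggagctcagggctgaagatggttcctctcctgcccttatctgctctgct
Col1a2: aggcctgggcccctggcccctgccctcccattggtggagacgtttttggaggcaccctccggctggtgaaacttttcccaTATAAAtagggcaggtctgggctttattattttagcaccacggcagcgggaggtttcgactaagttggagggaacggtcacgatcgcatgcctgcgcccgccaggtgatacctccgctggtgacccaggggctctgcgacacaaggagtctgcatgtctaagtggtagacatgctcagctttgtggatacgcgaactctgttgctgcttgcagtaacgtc

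The TGF-beta pathway itself held 2 called genes, 1 in each direction. The ligand binds a receptor pair that activates Smad proteins, which enter the nucleus and raise matrix genes. Of 20 tested pathway genes 1 rose and 1 fell, or 5% each against 1.82% and 1.27% of all named genes, and 18 did not pass. An unadjusted limma p below 0.05 was found for 7 of the 20, against 16.5% of all tested probes. The median log2 difference was -0.05. The ligand gene Tgfb1 ran from 6.93 through 7.46 to 8.63 with the antibody and from 7.86 through 8.47 to 8.98 with control IgG, a log2 difference of -0.84 that did not pass (SE 0.27, adjusted p = 0.086). The ligand gene Tgfb3 was at -0.80 (adjusted p = 0.078), with the 2 groups separate, and Tgfb2 at -0.15 (adjusted p = 0.73). The receptor genes Tgfbr1 (-0.05, adjusted p = 0.9) and Tgfbr3 (-0.49, adjusted p = 0.26) did not pass. Nor did the Smad genes Smad2 (-0.02, adjusted p = 0.96) and Smad4 (0.10, adjusted p = 0.72), the inhibitory Smad7 (-0.05, adjusted p = 0.94) or the target Ccn2 (0.22, adjusted p = 0.61). Tgif1, a repressor of Smad-driven transcription, fell by 1.0 (SE 0.25, adjusted p = 0.0285). Tgfbi, a matrix protein named for its induction by the ligand, rose by 0.93 (SE 0.20, adjusted p = 0.0154) with the groups separate. Smad3 was too dim to be tested, and Tgfbr2 had no named probe.

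In the list of Na/K-ATPase and associated genes, Atp1a4, the catalytic subunit known from sperm, lay at 7.12 to 7.87 (median 7.53) with the antibody and 5.82 to 7.00 (median 6.36) with control IgG. The groups were separate, with a 2.14-fold rise (log2 change 1.10, SE 0.19, adjusted p = 0.00752). Its probe may bind another subunit's transcript. Src, the kinase through which cardiotonic steroids are known to signal, was dim and fell by 0.67 (SE 0.15, adjusted p = 0.0148), being detected on 3 of 6 antibody arrays and all 6 control arrays. The other 12 of 14 tested genes did not pass, among them the beta subunit Atp1b1 (0.10, adjusted p = 0.52) and the gamma subunit Fxyd2 (0.16, adjusted p = 0.53).

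Injury, stress and lipid lists held from 2 to 3 called genes each. In the tubular injury list, the trefoil peptide Tff3 rose by 0.82 (SE 0.16, adjusted p = 0.0106), while Timp1 and the keratin Krt8 (-0.54, SE 0.14, adjusted p = 0.0314) fell, out of 13 tested. That is 7.69% raised and 15.4% lowered, against 1.82% and 1.27% of all named genes, with a median of -0.46. In the oxidative stress list, both subunits of the enzyme that limits glutathione synthesis rose. The modifier subunit Gclm rose by 0.63 (SE 0.14, adjusted p = 0.0195). The catalytic subunit Gclc passed as well (adjusted p = 0.0362), but it lay at 15.77, the top of the normalized scale, on 4 of 6 antibody arrays and 5 low-salt arrays, so no size is given for its change. Glutathione peroxidase Gpx1 fell by 0.38 (SE 0.11, adjusted p = 0.0487), and haem oxygenase Hmox1 was at -1.21 without passing (adjusted p = 0.099). Of the 17 tested, 11.8% were raised and 5.88% lowered. Of 18 tested lipid genes, Angptl4, an inhibitor of lipoprotein lipase, fell by 1.58 (SE 0.41, adjusted p = 0.0373) and the pyruvate dehydrogenase kinase Pdk4 by 1.0 (SE 0.23, adjusted p = 0.0208), or 11.1% lowered. None of 22 inflammation, 16 immediate early, 7 circadian, 14 oxidative phosphorylation or 12 cell cycle genes passed in limma. An unadjusted p below 0.05 was found for 7 of the 12 cell cycle genes, of which 11 lay below 0, for 4 inflammation genes, for 1 oxidative phosphorylation gene and for 0 of the immediate early and circadian genes, against 16.5% of all tested probes. Their medians ran from -0.34 for cell cycle genes and -0.26 for inflammation genes to 0.21 for clock genes. The lymphoid chemokine Ccl21, which belongs to no list, fell by 1.47 (SE 0.29, adjusted p = 0.0106) with separate groups. Uchl1, a neuronal ubiquitin hydrolase, was not detected on any antibody array and on 5 of 6 control arrays, and was at least 1.95-fold lower (adjusted p = 0.0266). Both tested fibroblast and mesangium markers, Col1a1 and Dcn, fell, and both also belong to the matrix list. Markers of some other cells did not pass: the T cell marker Cd3e was at -0.35 (adjusted p = 0.24), the endothelial Emcn at -0.18 (adjusted p = 0.7), the podocyte Nphs1 at 0.58 (adjusted p = 0.18) and the red cell Hbb at -1.05 (adjusted p = 0.39).

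**Figure D4:**
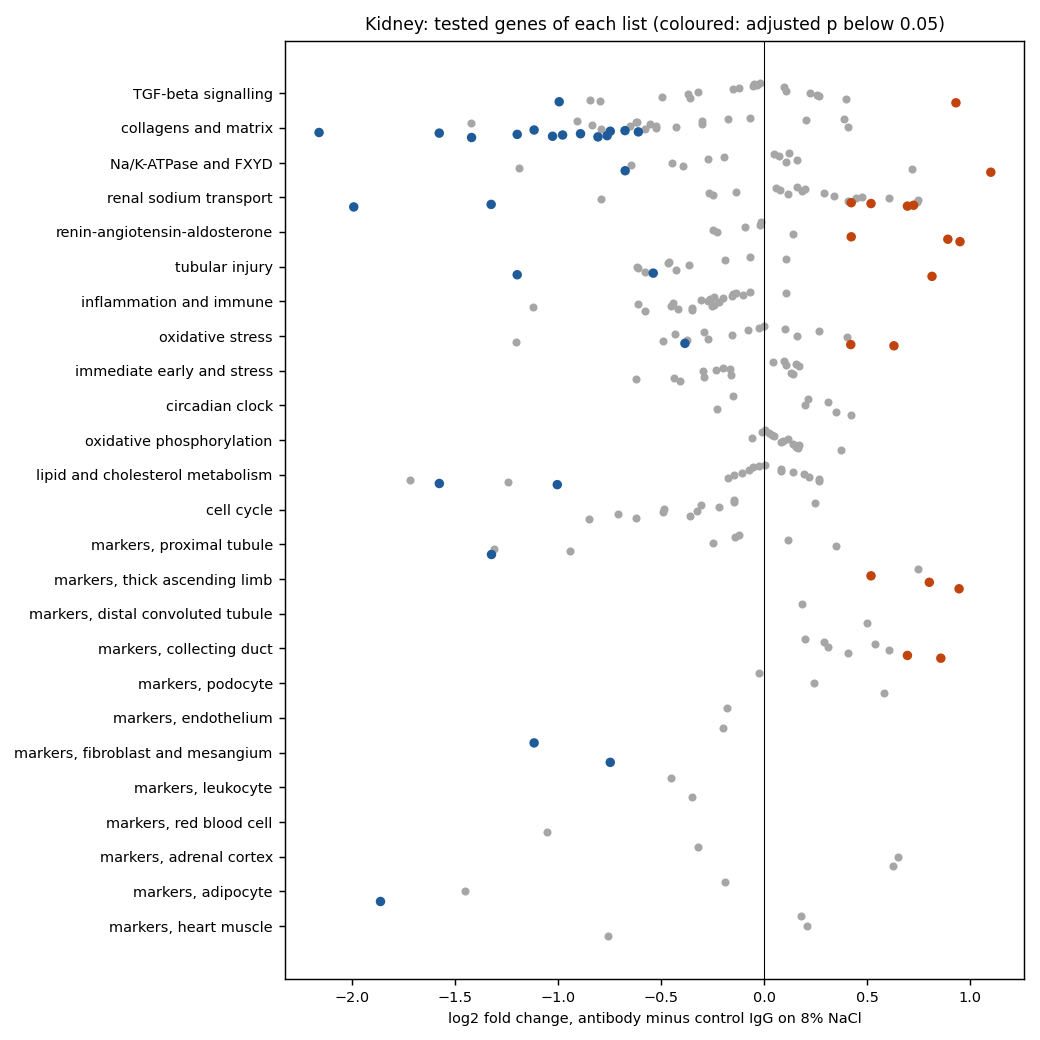
Log2 fold change (antibody minus control IgG on 8% NaCl, horizontal axis) of each tested gene of the 25 lists, 1 point per gene at its probe with the smallest p; coloured points have an adjusted p below 0.05. The matrix list holds 13 lowered genes, and the inflammation, immediate early, clock, oxidative phosphorylation and cell cycle lists hold none past the threshold.

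The low-salt kidneys show where the high-salt levels lay relative to rats on little salt. Those comparisons share arrays with the antibody comparison. The genes were named for their values on the same antibody arrays, so a limma p-value against the low-salt control group is no independent support. Diet and antibody also both differ in that comparison. Postn averaged 5.62 ± 0.24 (SD, n = 6) with the antibody on 8% NaCl and 7.04 ± 0.78 with control IgG, next to 5.35 ± 0.33 with control IgG on 0.1% NaCl. Most of these antibody arrays held background-level values of Postn, so the sizes of its differences are uncertain. Timp2 averaged 7.70 ± 0.39 and 8.50 ± 0.18, next to 7.67 ± 0.28 on low salt. Slc4a4, in contrast, averaged 9.66 ± 0.76 with the antibody on 8% NaCl, and 11.66 ± 0.43 with control IgG on 8% NaCl, 11.98 ± 0.53 with control IgG on 0.1% NaCl and 11.94 ± 0.37 with the antibody on 0.1% NaCl. The antibody group on 8% NaCl lay 2.31 below the low-salt control group (SE 0.29, adjusted p = 0.00034). Apcs (log2 difference -1.90, SE 0.37, adjusted p = 0.011), Mlph (-1.51, SE 0.22, adjusted p = 0.0015), Slc5a12 (-1.83, SE 0.46, adjusted p = 0.038) and Slc7a7 (-1.62, SE 0.34, adjusted p = 0.016) were below that group too, and Slc5a2 missed the threshold (-1.20, SE 0.32, adjusted p = 0.053). For Postn the difference from the low-salt control group was 0.26 (SE 0.25, adjusted p = 0.62), for Cyp1a1 0.52 (SE 0.43, adjusted p = 0.57) and for Slc22a13 0.47 (SE 0.30, adjusted p = 0.44). Scnn1g was above it by 0.75 (SE 0.15, adjusted p = 0.013).

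On 0.1% NaCl the antibody changed 0 of 11534 probes in limma (0%), with 1885 (16.3%) at an unadjusted p below 0.05. Of the 314 probes called on high salt, 26 had such an unadjusted p on low salt. The antibody effect differed between the diets at 128 probes (1.11%), 71 of them among the 314. The effect on high salt, by which the 314 were called, is part of that difference. Named genes whose effect differed included Slc4a4 (log2 effect -1.99 on high and -0.04 on low salt, difference -1.96, SE 0.41, adjusted p = 0.0289), Timp2 (difference -1.11, SE 0.21, adjusted p = 0.0151), Postn (-1.50, SE 0.35, adjusted p = 0.0403) and Apcs (-2.14, SE 0.53, adjusted p = 0.0468). Among raised genes the difference passed for Slc22a13 (2.15, SE 0.43, adjusted p = 0.0208), Atp1a4 (1.42, SE 0.27, adjusted p = 0.0151), Eaf2 (1.62, SE 0.34, adjusted p = 0.0289) and Egf (1.22, SE 0.28, adjusted p = 0.0367). The sizes for Postn and Slc22a13 are uncertain, since some high-salt arrays held background-level values of them. For Cyp1a1 (1.95, adjusted p = 0.085) and Lum (-2.48, adjusted p = 0.074) it did not. With the fat cell marker covariate 0 differences between diets passed, and with antibody replicate 5 left out 26 did.

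In the left ventricle of the same animals, the antibody on high salt changed 1567 of 8354 tested probes (18.8%). Of the 314 kidney calls 182 were bright enough to be tested there. Ventricular calls were higher for 7.12% and lower for 11.6% of all probes tested there. Among 92 raised in the kidney 7 (7.61%) were raised and 10 (10.9%) lowered in the ventricle, near those shares. Among 90 lowered in the kidney 12 (13.3%) were lowered and 1 (1.11%) raised. The effect differed between the tissues at 1113 of 12172 probes (9.14%), 68 of the 191 raised and 36 of the 123 lowered kidney probes being among them. The kidney effect, by which those probes were called, is part of the difference. All 314 kidney calls were in that test, also those too dim in the ventricle to be tested there. For the latter, the kidney effect is set against background-level ventricular values. The fall of Eln was larger in the kidney by 1.61 (SE 0.41, adjusted p = 0.0173), with a ventricular log2 difference of 0.12 (adjusted p = 0.69). Fbn1 differed between the tissues by -1.38 (SE 0.34, adjusted p = 0.0138). Its kidney log2 change was -0.76, so the kidney fall alone does not make up that difference. Postn was at -1.11 in the ventricle without passing (adjusted p = 0.051), and Col8a1 fell there by 2.59 (adjusted p = 0.0001). Slc4a4 was at 0.02 in the ventricle (adjusted p = 0.95), a difference of -2.11 from the kidney effect (SE 0.43, adjusted p = 0.00441).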

How the data were processed

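Whole-tissue RNA was hybridised to single-colour Illumina bead arrays, which were read with GenomeStudio 2011.1 per the submitters' processing notes. The deposited tables hold linear intensity values, not normalized between arrays, and a detection p-value per probe. A further deposited table holds scores, which recomputation showed to be z-scores of log10 intensity within each array. No chip batch could be examined, chip and chip position being not given in the sources used here.

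Intensities of the 24 kidney arrays were put through neqc, which corrects for background and normalizes by quantiles (limma 3.58.1, R 4.3.3, offset 16). A probe was tested when its detection p was below 0.05 on at least 6 of the 24 arrays. A model of 4 group means was fitted, with Benjamini-Hochberg adjustment over all 11534 probes. Differences between tissues were fitted on kidney minus ventricle values per animal, after neqc over 48 arrays, for probes detected on at least 6 of the 48. The procedure was checked on simulated data. Gene names came from GEO's platform annotation, which names 13793 of 22523 probes, and 13752 of these matched RefSeq by Entrez ID. A list gene counted as called when any of its probes passed. Counts of unadjusted p and the figure of the lists used its probe with the smallest p. List medians and counts above or below 0 used the mean over its probes. The text names the 15 largest rises and 15 largest falls among called genes with a symbol, called genes of the lists, and list genes that a sentence needs. Members and lists were chosen with earlier results of these data known. Replicate numbers did not pair the animals, so the fit has no replicate block. Alternatives covered scaling, background, filters, covariates, array weights, the replicate block and leaving out each array. The labels name 7 treated animals a group, of which 6 are on arrays.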

Additional observations from a re-analysis of the deposited data

Results flagged for a closer look

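Some single arrays lay far from the other 5 of their group. Decorin (Dcn) was at 13.22 on antibody replicate 2, against 12.32 to 12.65 on the other antibody arrays. Control replicate 1 had 10514 detected probes against 11038 to 11163, a log2 95th percentile of 10.96 against 11.98 to 12.23, and a first principal component score of 59.13 against -12.42 to 5.25. On the same array Mme was at 9.53 against 10.61 to 11.23, and Agt at 9.34 against 10.41 to 10.93. Col8a1 was at 7.83 on control replicate 3, against 9.20 to 9.60. In all, 7 of the 124 groups of values examined had such an array, and chance gives about 1 in 20.

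The antibody effect differed between the diets at 128 of 11534 probes (1.11%), by limma's test of the interaction. The 59 named probes were chosen by the effect on high salt, which is part of this difference, so their share is raised by that choice. Among the 59 named probes, 12 had such a difference, given here as the log2 effect on high salt minus that on low salt, with adjusted p from 0.0151 to 0.0495. It was above 0 for Slc22a13 (2.15), Eaf2 (1.62), Gcgr (1.58), Slc23a3 (1.19), Atp1a4 (1.42), Egf (1.22) and Gclm (0.89). It was below 0 for Postn (-1.50), Ccl21 (-1.73), Slc4a4 (-1.96), Apcs (-2.14) and Timp2 (-1.11). The sizes for Postn and Slc22a13 are uncertain, some of their high-salt arrays being at background level.

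The antibody effect on high salt differed between kidney and left ventricle at 1113 of 12172 probes (9.14%), by limma on the difference between the tissues of each animal. The 59 named probes were chosen by the kidney effect, which is part of this difference, so their share is raised by that choice. A probe entered this test with detection on at least 6 of the 48 arrays, so detection in the kidney alone was enough. Of the 15 largest rises 1 was bright enough to be tested in the ventricle by itself, and of the 15 largest falls 9. For a probe too dim there, the kidney effect is set against background-level ventricular values. Among the 59 named probes, 27 had such a difference, given here as the log2 effect in kidney minus that in ventricle, with adjusted p from 0.000573 to 0.0499. It was above 0 for Cyp1a1 (2.87), Slc22a13 (1.33), Eaf2 (1.25), Gcgr (1.85), Iqch (1.29), Prlr (1.40), Anxa13 (0.83), Atp1a4 (1.11), Mme (1.14), Scnn1a (0.76), Tgfbi (1.43), Gclm (0.88) and Tff3 (1.30). It was below 0 for Slc7a7 (-1.42), Mlph (-1.31), Angptl4 (-1.50), Eln (-1.61), Uchl1 (-1.36), Col14a1 (-1.41), Slc5a12 (-1.74), Slc4a4 (-2.11), Apcs (-2.85), Car3 (-3.49), Slc5a2 (-1.31), Sparc (-0.70), Col6a1 (-0.73) and Fbn1 (-1.38). The sizes for Slc22a13 and Uchl1 are uncertain, some of their high-salt kidney arrays being at background level.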

How the results depend on the processing

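The precision is limited by 6 arrays a group and by dim probes near background. The antibody effect on high salt (314 probes), its difference between diets (128) and its difference between tissues (1113) gave, in that order, 81, 318 and 1678 calls with median scaling, 1033, 1192 and 448 with array weights, 534, 240 and 461 with array brightness as a covariate, and 561, 217 and 676 without control replicate 1 on high salt and control replicate 2 on low salt. Median scaling moved the median log2 difference of all probes to 0.17 for the diets and 0.21 for the tissues. The deposited z-scores gave 288 calls (145 higher, 143 lower), 73 and 1697. The difference between diets had 57 calls with no filter on dim probes. With detection on every array it had 229, and the tissue difference 118. The high-salt groups alone gave 30 calls (10895 probes tested), and the fat cell marker covariate, chosen after seeing the data, gave 16 and, for the diets, 0, with 1671 at an unadjusted p below 0.05. The causes of these shifts were not tested.

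Leaving out 1 array gave 59 to 601, 26 to 365 and 632 to 1780 calls. The first count moved over 1.5 times without antibody replicates 1 (110), 2 (514), 3 (182) and 5 (59) and without control replicates 1 (206), 2 (161), 3 (601), 4 (193) and 5 (176). The second did so without antibody replicates 1 (38), 2 (149 higher and 88 lower), 3 (83), 4 (43) and 5 (26) and control replicates 2 (55), 3 (365), 4 (82) and 5 (46), and the third without antibody replicate 6 (1780) and control replicate 1 (632). Leaving out 1 array left 3 to 16 lowered matrix genes and 0 to 6 raised sodium transport genes. Matrix genes numbered 6 and sodium transport genes 0 with median scaling. The difference in detected probes was -412.6 (adjusted p = 0.0433, exact permutation test) without control replicate 1, and ran from -412.6 to -263.8 over such fits, while that in brightness ran from -0.29 to -0.03.

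Animals with the same replicate number did not deviate together (correlations from -0.25 to 0.46), and 2 of 6 numbers matched best with their own. The replicate block gave 133 higher and 108 lower calls on high salt, and 27 and 915 for the differences between diets and tissues; the numbers are not used as pairs. For the named probes 1100 of 1459 comparisons with an alternative stayed past the threshold, 359 did not, and 0 reversed. Without antibody replicate 5, 38 of the 59 were lost.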

Other observations

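Further genes of the antibody comparison, chosen here after their values were seen and in no fixed list, can be described by function. Several lysosomal enzymes, abundant in protein-absorbing tubule cells, were lower with the antibody. Lysosomal genes were not tested as a set. Cathepsin C (Ctsc), at 11.75 to 12.13 with the antibody and 11.81 to 12.41 with control IgG, did not pass. Ctsh, cathepsin H, lay at 11.39 to 12.75 with the antibody, with a median of 11.88, and at 12.75 to 13.35 with control IgG, with a median of 12.84 (log2 change -0.90, SE 0.17, limma adjusted p = 0.0097), and the groups did not overlap. Ctsb, cathepsin B, fell by 0.70 (SE 0.13), the asparaginyl protease Lgmn by 0.76 (SE 0.19), the dipeptidase Dpp7 by 0.78 (SE 0.20), Tpp1 by 0.42 (SE 0.09) and the galactosidase Glb1 by 0.65 (SE 0.15). Prcp, a carboxypeptidase that cleaves angiotensins, fell by 0.84 (SE 0.18) with separate groups. G6pc1, which releases glucose in the last step of gluconeogenesis, fell by 1.06 (SE 0.27), and the smooth muscle genes Myl9 and Kcnmb1 fell by 0.96 (SE 0.27) and 0.83 (SE 0.22).

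Transporters of organic ions and amino acids were among the raised genes. Slc7a13, an aspartate and glutamate transporter of the late proximal tubule, lay at 15.28 to 15.58 with the antibody and 13.85 to 15.23 with control IgG, without overlap (log2 change 0.91, SE 0.19, limma adjusted p = 0.014). The organic anion transporter Slc22a7 rose by 1.08 (SE 0.27), the organic cation transporter Slc22a2 by 0.66 (SE 0.18), Slco1a6 by 1.0 (SE 0.23) and the vitamin C transporter Slc23a1 by 0.78 (SE 0.22). Gss, glutathione synthetase, rose by 0.91 (SE 0.18). The proton pump subunits Atp6v1c2 and Atp6v1g3 rose by 0.72 (SE 0.18) and 0.50 (SE 0.11). Rnls, renalase, rose by 0.90 (SE 0.19) with separate groups, and Odc1, the first enzyme of polyamine synthesis, by 0.93 (SE 0.21).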
